A study of Mus musculus with 12 samples.

Results

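The Toll-like receptors of the mouse were followed in whole spleen by mRNA sequencing. The 10 members were chosen by symbol: Tlr1, Tlr2, Tlr4, Tlr5 and Tlr6, which sit at the cell surface, and Tlr3, Tlr7, Tlr8, Tlr9 and Tlr13, which sit in endosomes. They are 10 of the 18221 genes in the expression tables, and all 10 reached the level needed for testing. Tlr11 and Tlr12, further mouse receptors of this family, were not members and are given once, beside the pathway genes.

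Toll-like receptors are membrane proteins whose outer or luminal part binds a microbial product and whose inner part recruits an adaptor protein. The surface receptors detect components of the bacterial wall and flagella, whereas the endosomal receptors detect nucleic acids that have been taken into the cell. In the spleen they are carried by macrophages, dendritic cells, B lymphocytes and other leukocytes, and signalling through them activates NF-kappaB and interferon regulatory factors.

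The study asked how gut microbiota transfer affects a spleen damaged by busulfan, an alkylating drug used before bone marrow transplantation. The animals were male ICR mice, an outbred stock, 3 weeks old at the start and 8 weeks old at collection, with 3 mice sequenced in each of 4 groups. Con-sa mice were given saline and no busulfan (0 mg/kg), and B-sa mice received a single busulfan dose of 40 mg/kg followed by saline. B+Con-FMT and B+A10-FMT mice received the same busulfan dose and then, for 2 weeks, small intestinal contents by mouth. The donors of the B+Con-FMT group (water donors) had been dosed with distilled water, and the donors of the B+A10-FMT group (AOS donors) had been dosed with alginate oligosaccharide (AOS), a depolymerised seaweed polysaccharide, at 10 mg/kg. The transferred material was pooled from several donors, so that each FMT group stands for 1 pool. Recipients were outbred and the tissue was unsorted: fewer cells of a type and less RNA per cell cannot be told apart in any value below. The numbers 1 to 3 only name the mice of a group.

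Values are RPKM, read counts scaled to transcript length and to the mapped reads of the library, summed over the transcripts of a gene. The depth recovered from the steps between low values was about 14500000 to 15450000 reads in the 12 libraries, and globin transcripts made up 23.32% to 32.41% of the summed RPKM. Some libraries stood apart outside the receptor genes. The 5 pancreatic acinar markers, transcripts of a neighbouring organ, summed to 3720 to 5610 RPKM in the B+Con-FMT mice, 230 to 4500 with AOS donors, 223 to 1470 after busulfan alone and 589 to 3100 in the saline controls. Mouse 3 was the highest of B+A10-FMT and mouse 2 the highest of Con-sa. Kap, a transcript of the kidney tubule, averaged 93.9 RPKM in the saline controls, 11.1 after busulfan alone, 33.4 with water donors and 1.66 with AOS donors, and was called in every comparison but those of water donors with B-sa and with Con-sa. Its part in the receptor differences was not tested. The globin gene Hbb-bs averaged 19.0 RPKM in B-sa against 30500 in Con-sa, in mice of an outbred stock. It ran from 36.39 to 20929.59 RPKM with water donors and averaged 10900 with AOS donors, where it was called higher than after busulfan alone (adjusted p = 0.0388), and its part in the receptor differences was not tested. B cell markers were present in every mouse, with 0 of 5 at 0 in any group, and summed to 1370 to 2010 RPKM, which is what whole spleen should hold.

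Differences are on the scale of log2(RPKM + 1) and come from a limma fit over 12671 genes in all 12 mice. A gene was called when its Benjamini-Hochberg adjusted p over all of those genes was under 0.05. With 3 mice against 3, the exact two-sided permutation test cannot give a p below 0.1, and it gave 0.1 for every member comparison described below as not overlapping. In simulated data of this layout, 69% of genes changed by a log2 difference of 0.5 were called and 96.5% of those changed by 1, so that smaller differences can be missed.

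The upstream sequences of 4 receptors are shown first, because the data below set Tlr13 and Tlr6, which differed between groups, beside Tlr1 and Tlr9, for which no comparison passed the test. The windows come from RefSeq on GRCm38.p6 and run up to the annotated start of transcription, or to the first base that GENCODE M21 places in an exon of the gene. Tlr1 and Tlr6 have 2 listed starts each, of which the one with a match is shown, and that of Tlr6 lies inside the gene between exons. Both strands of the 250 bases before each start were searched for the PU.1-type letters GAGGAAG, the interferon-response letters GAAANNGAA and the kappaB-type letters GGGANNTTC, and matches are in capitals. PU.1 is a transcription factor of macrophages and B cells.
Tlr13, chrX:106143025-106143203, plus strand: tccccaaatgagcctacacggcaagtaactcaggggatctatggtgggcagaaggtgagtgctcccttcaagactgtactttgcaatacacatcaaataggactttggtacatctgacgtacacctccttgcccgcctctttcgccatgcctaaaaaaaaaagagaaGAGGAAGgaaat
Tlr9, chr9:106222348-106222597, plus strand: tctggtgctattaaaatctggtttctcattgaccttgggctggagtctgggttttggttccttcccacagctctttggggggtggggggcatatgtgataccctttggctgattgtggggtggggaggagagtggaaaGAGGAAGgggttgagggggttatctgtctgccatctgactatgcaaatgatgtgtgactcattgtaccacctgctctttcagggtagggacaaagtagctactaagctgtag
Tlr1, chr5:64933564-64933808, minus strand: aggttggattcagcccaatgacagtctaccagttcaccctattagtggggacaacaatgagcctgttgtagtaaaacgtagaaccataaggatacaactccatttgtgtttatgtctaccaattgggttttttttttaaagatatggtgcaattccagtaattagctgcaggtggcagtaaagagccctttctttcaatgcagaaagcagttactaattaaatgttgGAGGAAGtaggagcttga
Tlr6, chr5:64959167-64959416, minus strand: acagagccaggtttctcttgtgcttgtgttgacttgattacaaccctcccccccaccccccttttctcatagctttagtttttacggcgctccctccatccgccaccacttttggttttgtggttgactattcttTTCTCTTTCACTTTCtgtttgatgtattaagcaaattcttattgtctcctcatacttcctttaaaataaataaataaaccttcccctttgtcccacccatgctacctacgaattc

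The PU.1-type letters lay 83 to 77 bases before the start of Tlr13, 112 to 106 bases before that of Tlr9 and 23 to 17 bases before that of Tlr1. Of all 32851 promoter windows of this length in the table, 10.6% held them. The window of Tlr6 held the interferon-response letters on the other strand, in 2 matches at 115 to 107 and 109 to 101 bases before the start that share 3 letters, against 7.13% of all windows. Outside the printed windows, the same letters lay 67 to 59 bases before the start of Tlr8, and the kappaB-type letters, present in 3.23% of all windows, lay in the listed windows of Tlr2 and Tlr3, in parts that are inside these genes as GENCODE annotates them. Tlr5 held no match to any of the 3 motifs. Windows were listed for 8 of the 10 members, and those of Tlr4 and Tlr7 were not analysed here. The PU.1-type letters were thus shared by a receptor that differed between groups and by receptors that were not called, and a match is a run of letters and not a measured binding site.

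In GENCODE M21 on GRCm38, Tlr1 (chr5:64924679-64933563, minus strand) and Tlr6 (chr5:64952031-64960097, minus strand) are neighbours separated by 18467 bases. Of the 50-base windows of the longest Tlr1 transcript, 15.3% occurred word for word in that of Tlr6, and 12.5% of the Tlr6 windows occurred in Tlr1. No other of the 45 pairs of members shared such a window. Reads from those stretches can be assigned to either gene, and the division between Tlr1 and Tlr6 is therefore uncertain. Tlr7 (chrX:167304929-167330558, minus strand), Tlr8 (chrX:167242696-167264329, minus strand) and Tlr13 (chrX:106143204-106160493, plus strand) are X-linked, and Tlr7 and Tlr8 lie 40599 bases apart without a shared window. Tlr3 (chr8:45395665-45411080, minus strand) overlaps Gm45542 on the opposite strand, and since strand use in counting is not given in the sources used here, reads of the overlap cannot be told apart.

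The family's levels in Con-sa spleen ran from Tlr1, at 54.7 ± 2.51 RPKM (mean ± SD, n = 3 here and below), to Tlr5, the flagellin receptor, at 1.07 ± 0.0115. Tlr9, which binds unmethylated CpG DNA, at 15.7 ± 0.827, and Tlr7, which binds single-stranded RNA, at 15.3 ± 2.03, came next and overlapped between mice. They were followed by Tlr6 at 10.5 ± 0.79. Tlr3 at 7.59 ± 1.01 and Tlr2 at 6.77 ± 0.425 overlapped each other. Tlr13 stood at 5.71 ± 0.329, Tlr4 at 4.75 ± 0.342 and Tlr8 at 2.25 ± 0.174, each without overlap with the next. The place of Tlr1 depends on the transcripts that are summed: over its curated RefSeq transcripts alone, 2 of the 8 listed, its Con-sa mean was 12.7 RPKM, below those of Tlr9 (15.7) and Tlr7 (14.8). The Con-sa means of Tlr6, Tlr3 and Tlr5 were likewise lower on curated transcripts, at 5.02, 2.51 and 0.27 RPKM, whereas Tlr4, Tlr9 and Tlr13, each listed with 1 curated transcript, were unaffected by that choice.

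Across the 4 groups, 8 of the 10 members had their highest group mean in B+A10-FMT and the other 2, Tlr1 and Tlr6, in Con-sa. The lowest group mean was that of B-sa for 5 members and that of B+Con-FMT for the other 5. On curated transcripts the highest mean was that of B+A10-FMT for 6 members, since Tlr1 and Tlr5 were then highest in B-sa and Tlr3 in Con-sa, and the lowest was that of B+Con-FMT for 7, B-sa for 2 and Con-sa for Tlr1. The order of Tlr5 there rests on single mice. Its curated transcript was at 0.81 RPKM in Con-sa mouse 2, 1.29 in B-sa mouse 2 and 1.18 in B+A10-FMT mouse 3, and absent from all other mice. A moderated F test in limma over the 4 groups called 4 members, Tlr7 (adjusted p = 0.0121), Tlr6 (0.0149), Tlr3 (0.025) and Tlr13 (0.0288), in a table where 17.1% of all genes were called. Tlr9, Tlr4, Tlr5, Tlr8, Tlr2 and Tlr1 had adjusted p between 0.0617 and 0.368.

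**Figure D1:**
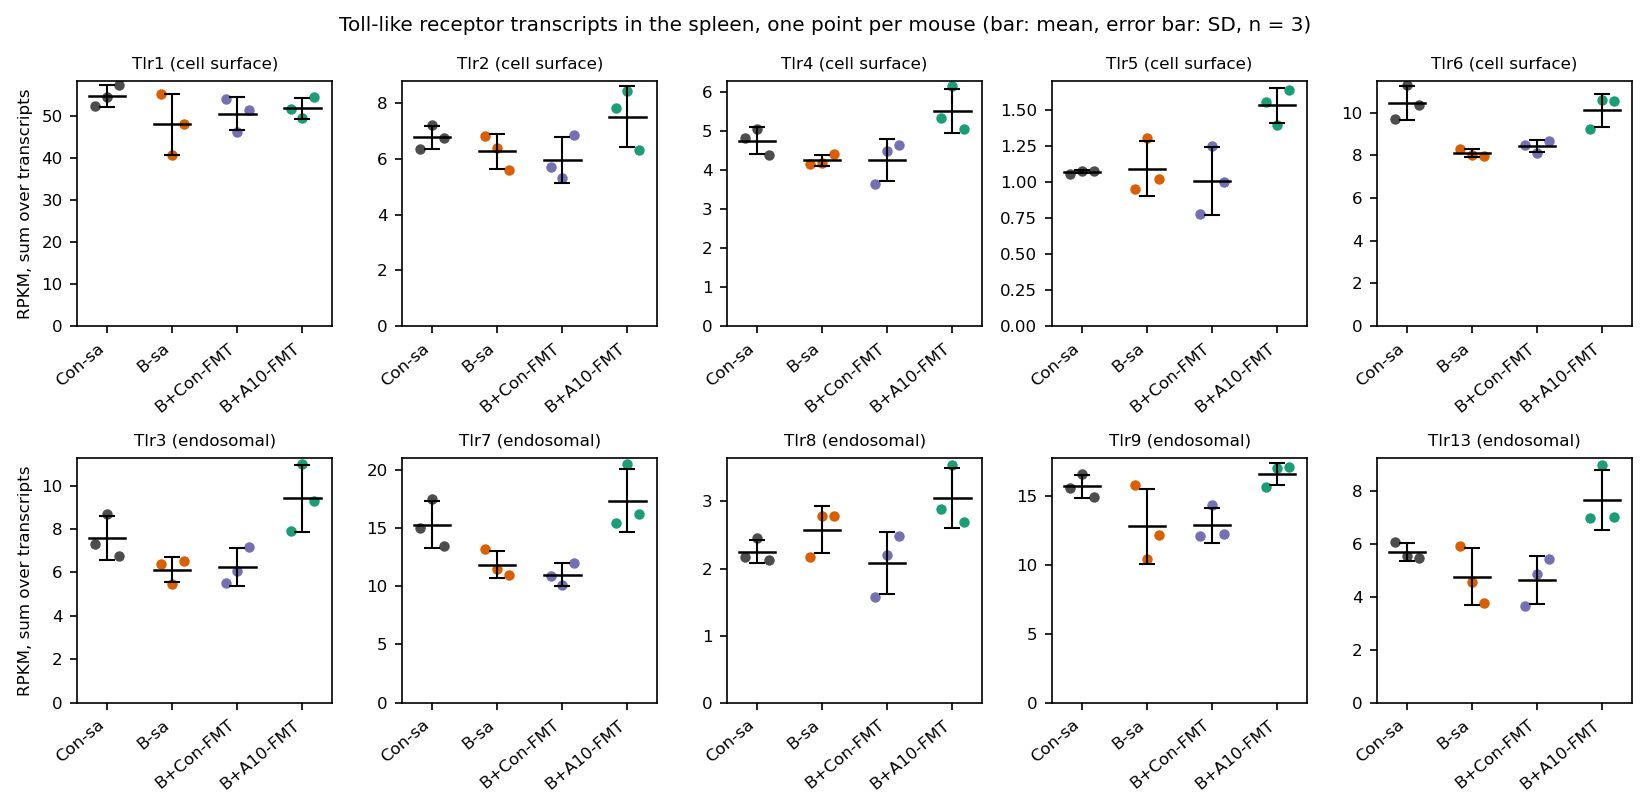
Summed RPKM (vertical axis, linear from 0, own scale in each panel) of the 10 Toll-like receptors in each of the 12 mice by group, with the mean as a bar and the SD as an error bar. The 3 B+A10-FMT mice lie above all B-sa and B+Con-FMT mice for Tlr3, Tlr4, Tlr5, Tlr6, Tlr7 and Tlr13, and the groups overlap for Tlr1 and Tlr2.

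Tlr7 was measured at 14.98, 17.47 and 13.45 RPKM in Con-sa mice 1 to 3 and at 13.19, 11.45 and 10.96 in B-sa. It stood at 10.87, 10.11 and 12.02 RPKM in B+Con-FMT and at 15.43, 20.50 and 16.18 in B+A10-FMT. All B-sa and B+Con-FMT mice were below all Con-sa mice, and all B+A10-FMT mice were above both of these busulfan groups while overlapping with Con-sa.

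Tlr13, the endosomal sensor of bacterial ribosomal RNA, was at 6.09, 5.57 and 5.48 RPKM in Con-sa and at 5.93, 4.57 and 3.79 in B-sa. In B+Con-FMT it was at 3.66, 4.86 and 5.44 RPKM, and in B+A10-FMT at 7.0, 9.0 and 7.04. The B+A10-FMT mice were above every other mouse, and B-sa mouse 1 lay within the Con-sa range.

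Tlr3, the double-stranded RNA receptor, was at 7.33, 8.71 and 6.74 RPKM in Con-sa and at 6.39, 5.45 and 6.53 in B-sa. It was at 5.51, 6.05 and 7.19 RPKM in B+Con-FMT and at 7.92, 10.99 and 9.31 in B+A10-FMT. The B+A10-FMT mice were above both other busulfan groups, and mouse 1 of that group was below Con-sa mouse 2.

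Tlr6, the partner of Tlr2 for diacylated lipopeptides, was at 9.72, 11.29 and 10.35 RPKM in Con-sa and at 8.30, 8.02 and 7.99 in B-sa. Its values were 8.5, 8.12 and 8.66 RPKM in B+Con-FMT and 9.21, 10.57 and 10.55 in B+A10-FMT. The 6 mice of B-sa and B+Con-FMT were all below the 6 mice of Con-sa and B+A10-FMT.

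Tlr4, the lipopolysaccharide receptor, was at 4.83, 5.05 and 4.38 RPKM in Con-sa and at 4.16, 4.17 and 4.41 in B-sa. It was at 3.64, 4.49 and 4.64 RPKM in B+Con-FMT and at 5.32, 6.14 and 5.06 in B+A10-FMT, whose 3 mice were the highest of the 12. The AOS-donor mice were likewise the 3 highest for Tlr5, with 1.56, 1.40 and 1.64 RPKM in B+A10-FMT against 1.06, 1.08 and 1.08 in Con-sa, 0.95, 1.31 and 1.02 in B-sa and 0.78, 1.25 and 1.0 in B+Con-FMT. Tlr5 lay close to the level of 1 RPKM required for testing.

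Tlr9 was at 15.56, 16.57 and 14.93 RPKM in Con-sa, 15.77, 10.44 and 12.14 in B-sa, 12.06, 14.30 and 12.20 in B+Con-FMT and 15.64, 16.99 and 17.07 in B+A10-FMT, so that B-sa mouse 1 lay among the control values. Tlr8, a further RNA sensor, was at 2.17, 2.45 and 2.13 RPKM in Con-sa, 2.17, 2.78 and 2.78 in B-sa, 1.58, 2.2 and 2.48 in B+Con-FMT and 2.89, 3.55 and 2.70 in B+A10-FMT. B-sa and Con-sa overlapped for Tlr8, and B+A10-FMT lay above Con-sa and B+Con-FMT. Tlr2, which pairs with Tlr1 or Tlr6 to bind bacterial lipopeptides, was at 6.35, 7.20 and 6.76 RPKM in Con-sa, 6.83, 6.39 and 5.60 in B-sa, 5.71, 5.30 and 6.87 in B+Con-FMT and 7.81, 8.43 and 6.32 in B+A10-FMT. Its groups overlapped throughout.

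Tlr1, the partner of Tlr2 for triacylated lipopeptides, was at 52.34, 54.51 and 57.34 RPKM in Con-sa and at 55.14, 40.73 and 48.03 in B-sa. It was at 54.06, 46.20 and 51.42 RPKM in B+Con-FMT and at 51.53, 49.41 and 54.38 in B+A10-FMT. All groups overlapped, and Tlr1 made up 36.1% to 50.8% of the summed RPKM of the 10 receptors in a mouse. Its largest difference in size, B-sa versus Con-sa, was a log2 difference of -0.20 with a 95% confidence interval from -0.40 to 0.0036. On curated transcripts alone that direction turned: Tlr1 was at 18.5 RPKM in B-sa (16.97 to 20.14) against 12.7 in Con-sa (11.41 to 15.08), without overlap, and the log2 difference of 0.52 did not pass the test (adjusted p = 0.2). The curated means were 14.5 RPKM with water donors and 17.0 with AOS donors, so that 5 of the 6 Tlr1 comparisons changed direction and only that between the 2 transfers did not; none passed the test on either set of transcripts. For B+A10-FMT versus B+Con-FMT the interval ran from -0.16 to 0.24 around a log2 difference of 0.04.

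Busulfan without microbiota transfer was compared with saline (B-sa versus Con-sa). Tlr6 was lower after busulfan, at 8.1 against 10.5 RPKM, a log2 difference of -0.33 ± 0.07 (SE here and below; adjusted p = 0.0119). It was the only member called, 1 of 10, where 14.5% of all genes were called, 32.6% of them higher (55.6% with median-of-ratios scaling, which sets the libraries level by their median gene). Between the mice, 3 members did not overlap, Tlr6, Tlr7 and Tlr3, each lower in B-sa, beside 34.0% of all genes. The log2 difference of Tlr7 was -0.34 ± 0.11 (adjusted p = 0.0644) and that of Tlr3 -0.27 ± 0.12 (0.154). The other 7 members ranged from -0.29 (Tlr9) to 0.13 (Tlr8), with adjusted p from 0.0999 to 0.96. The median over the members was -0.22, and over all genes tested -0.04. With all mice kept, neither share of the members was above that of all genes. For the calls, that order depended on the mice kept. With 1 member still called, calls over all genes went from 1838 to 513 without B-sa mouse 2. With 1 member called each time, they were 826, 786 and 934 without Con-sa mice 1 to 3 and 1355 without B-sa mouse 3. They were 1562 to 1708, again with 1 member, without any 1 B+Con-FMT mouse or B+A10-FMT mouse 1 or 3. Without B-sa mouse 1 the number of members called was 4, beside 2100 of all genes. Without B+A10-FMT mouse 2, which serves here only to estimate the spread, it was 2, beside 1572. The Tlr6 difference was -0.71 on curated transcripts.

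Transfer from water donors was compared with busulfan alone (B+Con-FMT versus B-sa). None of the 10 members was called by limma, and none had an unadjusted p under 0.05, beside 0.837% of all genes called and 2329 genes with an unadjusted p under 0.05. No member was free of overlap between the mice, against 19.5% of all genes. The log2 differences ran from -0.22 for Tlr8, with a 95% interval from -0.48 to 0.04, to 0.08 for Tlr1, with an interval from -0.12 to 0.28. The interval of Tlr7 ran from -0.35 to 0.15 and that of Tlr13 from -0.34 to 0.29. The median over the members was -0.01, and over all genes -0.0041.

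Transfer from AOS-dosed donors was compared with busulfan alone (B+A10-FMT versus B-sa). Endosomal receptors were higher in B+A10-FMT: Tlr13 was at 7.68 against 4.76 RPKM (log2 difference 0.60 ± 0.14, adjusted p = 0.036), Tlr3 at 9.41 against 6.12 (0.54 ± 0.12, 0.0287) and Tlr7 at 17.4 against 11.9 (0.51 ± 0.11, 0.0287). At the surface, Tlr6 was higher at 10.1 against 8.1 RPKM (0.29 ± 0.07, adjusted p = 0.0372). These 4 of 10 members were called, where 5.27% of all genes were, 75.9% of them higher (44.7% with median-of-ratios scaling). Tlr4 (0.31 ± 0.09, adjusted p = 0.0661) and Tlr5 (0.28 ± 0.11, 0.133) did not overlap between the groups but missed the threshold. In all, 6 of 10 members did not overlap, beside 27.0% of all genes. Tlr9, Tlr2, Tlr8 and Tlr1 overlapped, with log2 differences from 0.12 to 0.37 and adjusted p from 0.0748 to 0.456. The median was 0.30 over the members and 0.05 over all genes.

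Calls of B+A10-FMT versus B-sa were lost, for receptors and over all genes, when single mice were left out. Without B-sa mouse 2 or without B+A10-FMT mouse 2, 0 members were called by limma, and without B-sa mouse 3 or B+A10-FMT mouse 3 there was 1. Over all genes the calls went from 668 to 141 without B-sa mouse 2, 106 without B+A10-FMT mouse 2, 468 without B-sa mouse 3 and 345 without B+A10-FMT mouse 3. The adjusted p of Tlr7 was 0.104 without either mouse 2 and 0.0689 without B-sa mouse 3. That of Tlr3 was 0.113 without B-sa mouse 2, 0.11 without B+A10-FMT mouse 2 and 0.0668 without B+A10-FMT mouse 3. Tlr13 lost its call without any of B-sa mice 2 and 3 (0.119 and 0.084), B+A10-FMT mice 1, 2 and 3 (0.0615, 0.131 and 0.0602) and Con-sa mouse 1 (0.0534). For Tlr6 the adjusted p was 0.113 without B-sa mouse 2, 0.0722 without B-sa mouse 3, 0.132 without B+A10-FMT mouse 2 and 0.103 without B+A10-FMT mouse 3. Each of these differences stayed positive when a mouse was left out. In a fit of the 2 groups only, none of the 4 was called by limma (adjusted p from 0.0565 to 0.0949), and Tlr6 and Tlr13 lost their calls without a filter on low values (0.05 and 0.0591) and with a replicate block (0.0564 and 0.0615). With median-of-ratios scaling 3 members were called in place of 4, beside 631 of all genes in place of 668. On curated transcripts 0 members were called and the log2 difference of Tlr3 turned to -0.09 (adjusted p = 0.923), from curated means of 2.27 and 2.17 RPKM. Tlr13, whose value comes from 1 curated transcript, kept its log2 difference of 0.60 there, with an adjusted p of 0.0735.

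The transfers were compared with each other (B+A10-FMT versus B+Con-FMT), a comparison that uses the same B+A10-FMT mice. The endosomal Tlr13, Tlr7 and Tlr3 were higher with AOS-dosed donors, Tlr13 at 7.68 against 4.65 RPKM (log2 difference 0.62 ± 0.14, adjusted p = 0.0215), Tlr7 at 17.4 against 11 (0.61 ± 0.11, 0.00964) and Tlr3 at 9.41 against 6.25 (0.52 ± 0.12, 0.0223). Of the surface receptors, Tlr4 was at 5.51 against 4.26 RPKM (0.31 ± 0.09, adjusted p = 0.0485) and Tlr6 at 10.1 against 8.43 (0.23 ± 0.07, 0.0494). Thus 5 of 10 members were called, all higher, where 10.3% of all genes were called. Of those 1310 genes 73.3% were higher, a share that was 44.7% with median-of-ratios scaling and 89.8% with totals equalised outside the globin genes, whereas the differences of the 5 receptors stayed positive under both. With median-of-ratios scaling Tlr4 and Tlr6 were not called (adjusted p = 0.0811 and 0.0828). Tlr8 (0.40 ± 0.12, adjusted p = 0.0559), Tlr5 (0.34 ± 0.11, 0.0581) and Tlr9 (0.35 ± 0.11, 0.0683) did not overlap between the groups but were not called. In all 8 of 10 members did not overlap, beside 35.1% of all genes. Tlr2 differed by 0.29 (adjusted p = 0.0997). The median was 0.34 over the members, 0.52 over the endosomal and 0.29 over the surface members, against 0.05 over all genes.

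Between the 2 transfers, Tlr7 was the member whose call held in all 22 alternatives, with an adjusted p between 0.00387 and 0.0455. Leaving out 1 mouse brought the number of members called to between 1 and 5. It was 1 without B+Con-FMT mouse 1, without B+Con-FMT mouse 2 or without B+A10-FMT mouse 2, and 3 without B+A10-FMT mouse 3, B-sa mouse 3 or any 1 of the Con-sa mice. Over all genes the calls went from 1310 to 305, 490 and 218 without the first 3 of these mice in turn. They were 778 without B+A10-FMT mouse 3, 1370 without B-sa mouse 3, and 937, 1068 and 1132 without Con-sa mice 1 to 3. Tlr13 then had an adjusted p of 0.0875 without B+Con-FMT mouse 1, 0.0529 without B+Con-FMT mouse 2 and 0.095 without B+A10-FMT mouse 2. Tlr3 had 0.0951, 0.0674 and 0.101 without these same mice and 0.0518 without B+A10-FMT mouse 3. The calls of Tlr4 and Tlr6 lay at the threshold: leaving out a mouse ended that of Tlr4 for every mouse but B+Con-FMT mouse 3 (adjusted p from 0.0506 to 0.188) and that of Tlr6 for every mouse but B+A10-FMT mouse 1 (from 0.0505 to 0.177). On curated transcripts 2 members were called, and Tlr3 had an adjusted p of 0.67.

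**Figure D2:**
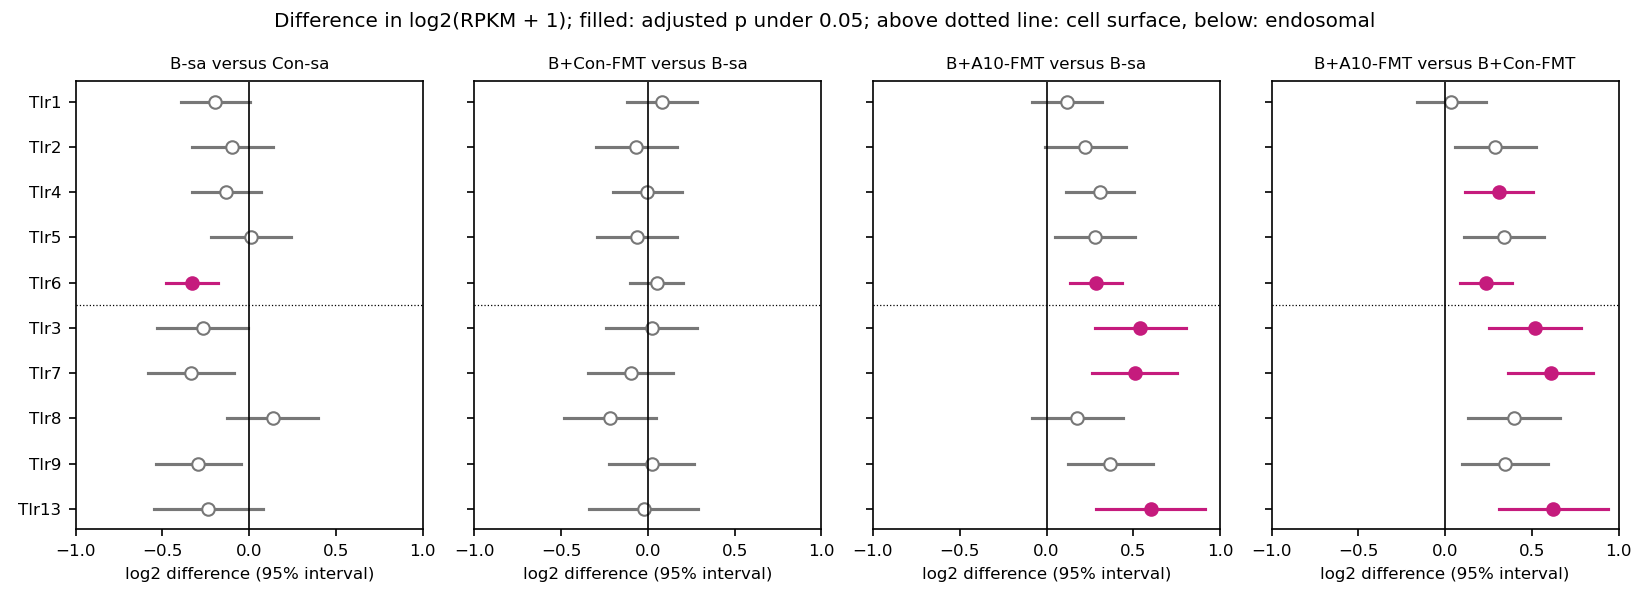
Difference in log2(RPKM + 1) (horizontal axis) with its 95% confidence interval from limma for the 10 receptors in 4 comparisons, filled where the adjusted p was under 0.05. In B+Con-FMT versus B-sa every interval includes 0, and between the 2 transfers every interval but that of Tlr1 lies above 0.

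The microbiota groups were then compared with the saline controls. In B+Con-FMT versus Con-sa, Tlr7 was lower at 11 against 15.3 RPKM (log2 difference -0.44 ± 0.11, adjusted p = 0.0364) and Tlr6 at 8.43 against 10.5 (-0.28 ± 0.07, 0.0301), 2 of 10 members beside 8.87% of all genes, of which 26.0% were higher (52.4% with median-of-ratios scaling and 10.8% with totals equalised outside the globin genes). Tlr9 (-0.27 ± 0.11, adjusted p = 0.145) and Tlr13 (-0.26 ± 0.14, 0.263) were also below every Con-sa mouse, so that 4 of 10 members did not overlap, beside 34.2% of all genes. All 10 log2 differences were negative, with a median of -0.20 against -0.04 over all genes, but that of Tlr1 was positive on curated transcripts (0.14, adjusted p = 0.769). Tlr7 lost its call without Con-sa mouse 1 or 2 (adjusted p = 0.0914 and 0.12) and without B+Con-FMT mouse 1 or 2 (0.0935 and 0.105). Tlr6 lost its call without Con-sa mouse 2 or 3 (0.11 and 0.0625) and without B+Con-FMT mouse 1, 2 or 3 (0.072, 0.0888 and 0.056). No member was called by limma without Con-sa mouse 2, B+Con-FMT mouse 1 or B+Con-FMT mouse 2, 1 was called without Con-sa mouse 1 or 3 or B+Con-FMT mouse 3, and 3 were called without B-sa mouse 1. Over all genes the calls went from 1124 to 367, 393, 533, 329, 658, 601 and 1305 without these mice in the same order.

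In B+A10-FMT versus Con-sa, 0 of 10 members were called by limma, where 0.41% of all genes were, and 4 members had an unadjusted p under 0.05, as did 1709 genes in all. Tlr13 (0.36 ± 0.14, adjusted p = 0.305), Tlr8 (0.31 ± 0.12, 0.298), Tlr5 (0.29 ± 0.11, 0.277) and Tlr4 (0.18 ± 0.09, 0.417) were higher than every Con-sa mouse, 4 of 10 members beside 21.6% of all genes. The 95% interval of Tlr7 ran from -0.08 to 0.42 and that of Tlr6 from -0.19 to 0.11, so a return to the control level and a moderate departure from it were not separable for these genes.

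The 2 classes were set side by side as the mean log2(RPKM + 1) of the 5 members of each class in each mouse. The endosomal mean was 3.124 ± 0.099 in the saline controls, 2.924 ± 0.108 after busulfan alone, 2.864 ± 0.14 with water donors and 3.362 ± 0.155 with AOS donors. The surface mean was 3.169 ± 0.048, 3.02 ± 0.04, 3.021 ± 0.064 and 3.263 ± 0.037 in the same order of groups. For both classes the AOS-donor mice lay above all mice of the other busulfan groups. The endosomal minus surface difference was -0.045 ± 0.077 in the saline controls, -0.096 ± 0.071 after busulfan alone, -0.156 ± 0.083 with water donors and 0.1 ± 0.121 with AOS donors. By mouse it ranged from -0.134 to 0.004, from -0.156 to -0.018, from -0.251 to -0.102 and from -0.002 to 0.233, so B+A10-FMT lay above both other busulfan groups and overlapped with Con-sa. These are values over chosen members, and no test was made of them. On curated transcripts the differences were 0.412, 0.315, 0.363 and 0.454 in the same order of groups, and with a pseudocount of 0.1 they were 0.032, -0.019, -0.086 and 0.17, so the sign of a class difference depends on these choices. The curated surface mean includes Tlr5, whose curated transcript was absent from most mice.

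**Figure D3:**
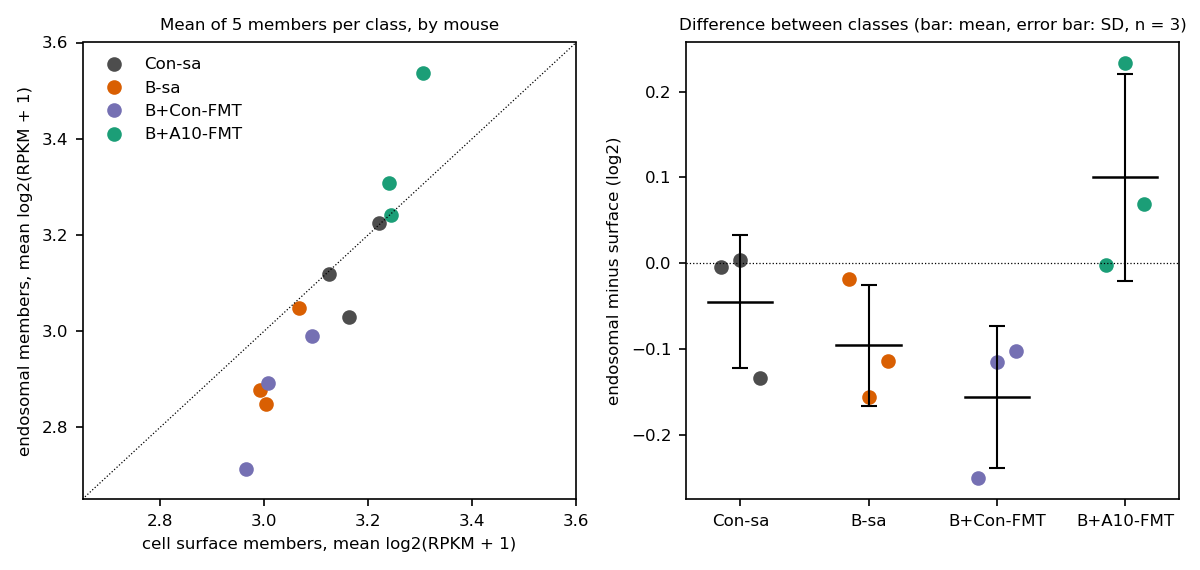
Left, mean log2(RPKM + 1) of the 5 endosomal members against that of the 5 surface members, 1 point per mouse, with a dotted line of equality. Right, the difference between the classes by group with mean and SD; B+A10-FMT mice lie between -0.002 and 0.233 and B+Con-FMT mice between -0.251 and -0.102.

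The members moved together across mice to different degrees. Of the 45 pairs of members, 43 had a positive Pearson r of log2(RPKM + 1) over the 12 mice, with a median of 0.644, and the highest were Tlr4 with Tlr3 at 0.923 and Tlr3 with Tlr7 at 0.917. Tlr1 with Tlr8 (-0.395) and Tlr1 with Tlr5 (-0.264) were the negative pairs. These 12 points fall in 4 groups and share the library of each mouse, so the coefficients are descriptions without a test.

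Over all genes tested, the 3 of highest r with each member were also taken. For Tlr7 they were Cdh5, the endothelial cadherin (0.957), Tdrd7 (0.956) and Dtx3l (0.946), and for Tlr13 Nrp2 (0.949), Nectin4 (0.938) and again Cdh5 (0.937). For Tlr4 they were Plxna1 (0.966), Thbd, thrombomodulin (0.961), and Clec4n, a lectin of macrophages (0.952). For Tlr3 they were Cmtr1, an mRNA cap methyltransferase (0.945), Coch (0.941) and Golm1 (0.937). For Tlr6 they were 4930523C07Rik (0.955), Akap12 (0.949) and Zfand3 (0.945), and for Tlr9 Epb41l2 (0.952), Ttc37 (0.949) and Plxnc1 (0.948). For Tlr8 they were Asap1 (0.957), Stil (0.956) and the lysosomal protease gene Ctsb (0.93). For Tlr1 they were Sh3kbp1 (0.952), Patj (0.936) and Traf3ip3 (0.907). For Tlr2 they were Cyfip1 (0.913), Sulf2 (0.912) and Anxa5 (0.897), and for Tlr5 Nhlrc3 (0.94), Lrrc39 (0.918) and Cadm4 (0.911). No gene was among the 3 of more than 1 member except Cdh5.

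The pathway around the receptors was read from lists of co-receptors, trafficking factors, adaptors, kinases, transcription factors, inhibitors and targets, 67 genes with Tlr11 and Tlr12, of which 61 were tested. In B-sa versus Con-sa, 1 of the 61 was called higher and 11 lower, with a median log2 difference of -0.12. Water donors against busulfan alone gave none by limma, with 18 of the 61 genes at an unadjusted p under 0.05, beside 2329 of all 12671 (median log2 difference 0.05), and 4 without B-sa mouse 1, 1 without B+Con-FMT mouse 3, 1 with a replicate block and 1 with totals equalised outside the globin genes. AOS donors against busulfan alone gave 3 higher and 2 lower (median 0.13), and AOS donors against water donors gave 6 higher and 2 lower (0.07). Against the saline controls, 5 were lower with water donors (-0.07) and 1 was lower with AOS donors (0.01). Beside the shares of all genes given above for each comparison, these counts of called genes were not far from the background, and no test was made of them. They also varied with the mice: with 1 left out, the B-sa versus Con-sa count ranged from 2, without B-sa mouse 2, to 17, without B-sa mouse 1. The count for AOS donors against water donors ranged from 1, without B+A10-FMT mouse 2, to 10, without B-sa mouse 1, and that for AOS donors against busulfan alone from 0, without B-sa mouse 2 or any B+A10-FMT mouse, to 11, without B-sa mouse 1. For water donors against the saline controls it ranged from 0, without Con-sa mouse 2 or B+Con-FMT mouse 1, to 8, without B-sa mouse 1, and it was 1 with median-of-ratios scaling and 11 with totals equalised outside the globin genes.

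Among the co-receptors, Ly96 (MD-2), which completes the Tlr4 lipopolysaccharide receptor, was at 13.2 RPKM in B-sa against 17.9 in Con-sa (log2 difference -0.42, adjusted p = 0.0119), and at 17 with AOS donors it exceeded busulfan alone (0.35, 0.0443). Cd180, a receptor of B cells and myeloid cells related to Tlr4, was at 77.3 RPKM with AOS donors and exceeded busulfan alone at 57.7 (0.42, adjusted p = 0.0436) and water donors at 50.8 (0.60, 0.00866). Cd36, a scavenger receptor that assists Tlr2 with Tlr6, was at 109 RPKM in B+A10-FMT against 79.8 in B+Con-FMT (0.44, adjusted p = 0.0116). For water donors against saline controls, Ly96, Cd180 and Cd36 differed by -0.31, -0.49 and -0.31 on the log2 scale (adjusted p = 0.0496, 0.02 and 0.048). Lbp, the lipopolysaccharide-binding protein, went the other way, at 3.24 RPKM in B-sa against 2.35 in Con-sa (0.33, adjusted p = 0.0462), and at 2.18 with AOS donors it was below busulfan alone (-0.41, 0.0388).

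Of the genes that carry or process endosomal receptors, Slc15a4, a lysosomal transporter needed for signalling by Tlr7 and Tlr9, was lower in all 3 busulfan groups than in Con-sa, at 23.1, 24.9 and 23.4 RPKM against 30.3. Its log2 differences from the controls were -0.38, -0.27 and -0.36 in the order B-sa, water donors, AOS donors (adjusted p = 0.00619, 0.0268 and 0.0349). It was the only pathway gene called for AOS donors against the saline controls. That count of 1 fell to 0 without any 1 of the Con-sa or B+A10-FMT mice or B-sa mouse 2, with a replicate block, in a fit of the 2 groups only, on curated transcripts, in limma without trend and robust, and with Con-sa mouse 2 and B+A10-FMT mouse 3 left out together. The lysosomal protease Ctsb was higher with AOS than with water donors (0.28, adjusted p = 0.0409), and Ctsl, another, was lower with AOS donors than after busulfan alone (-0.19, 0.0436). The remaining 5 of the 8 genes in this list, with Unc93b1, the chaperone that carries endosomal receptors out of the endoplasmic reticulum, were called in no comparison.

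The downstream genes called in B-sa versus Con-sa, the comparison with the most calls over all genes, were all lower in B-sa. Over all genes 1239 of 1838 calls were lower there, and 771 of 1736 with median-of-ratios scaling. The downstream genes were the kinases Irak2 (-0.25, adjusted p = 0.0164), Irak4 (-0.24, 0.0338) and Tbk1 (-0.19, 0.0479), the ubiquitin ligase Traf3 (-0.27, 0.0205), the transcription factors Irf5 (-0.38, 0.00583), Irf8 (-0.33, 0.0229) and Rel (-0.40, 0.0251), the inhibitor Irak3 (-0.25, 0.0263) and the chemokine Ccl5 (-0.39, 0.0368). Irak3 was higher with AOS donors than after busulfan alone (0.28, adjusted p = 0.0307). Between the 2 transfers, the adaptor Pik3ap1 (0.28, adjusted p = 0.0445) and the inhibitor Tollip (0.21, 0.0223) were higher. Of the genes induced by NF-kappaB, Tnf was at 5.14 RPKM in B+A10-FMT against 7.54 in B+Con-FMT (-0.47, adjusted p = 0.0367). Tnf was the 1 of 9 targets tested that was called between the 2 transfers, the median over the 9 was a log2 difference of -0.04, and Cxcl10, an interferon-induced chemokine, was at 19.1 against 14.6 RPKM without passing. Nfkbia, an inhibitor of NF-kappaB, was at 71.8 against 86.6 RPKM (-0.27, adjusted p = 0.0444), so that of the 8 inhibitors 1 was higher and 1 lower. With water donors, Tollip was below the saline controls (-0.18, adjusted p = 0.0452). The 6 genes below the level for testing, Il6, Il10, Ifnb1, Cxcl2, Ptgs2 and Sarm1, did not exceed 0.97 RPKM in any mouse. Tlr11 was at 3.93 RPKM in B+A10-FMT against 2.5 in B+Con-FMT (0.49, adjusted p = 0.0152), and Tlr12 was called in no comparison.

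**Figure D4:**
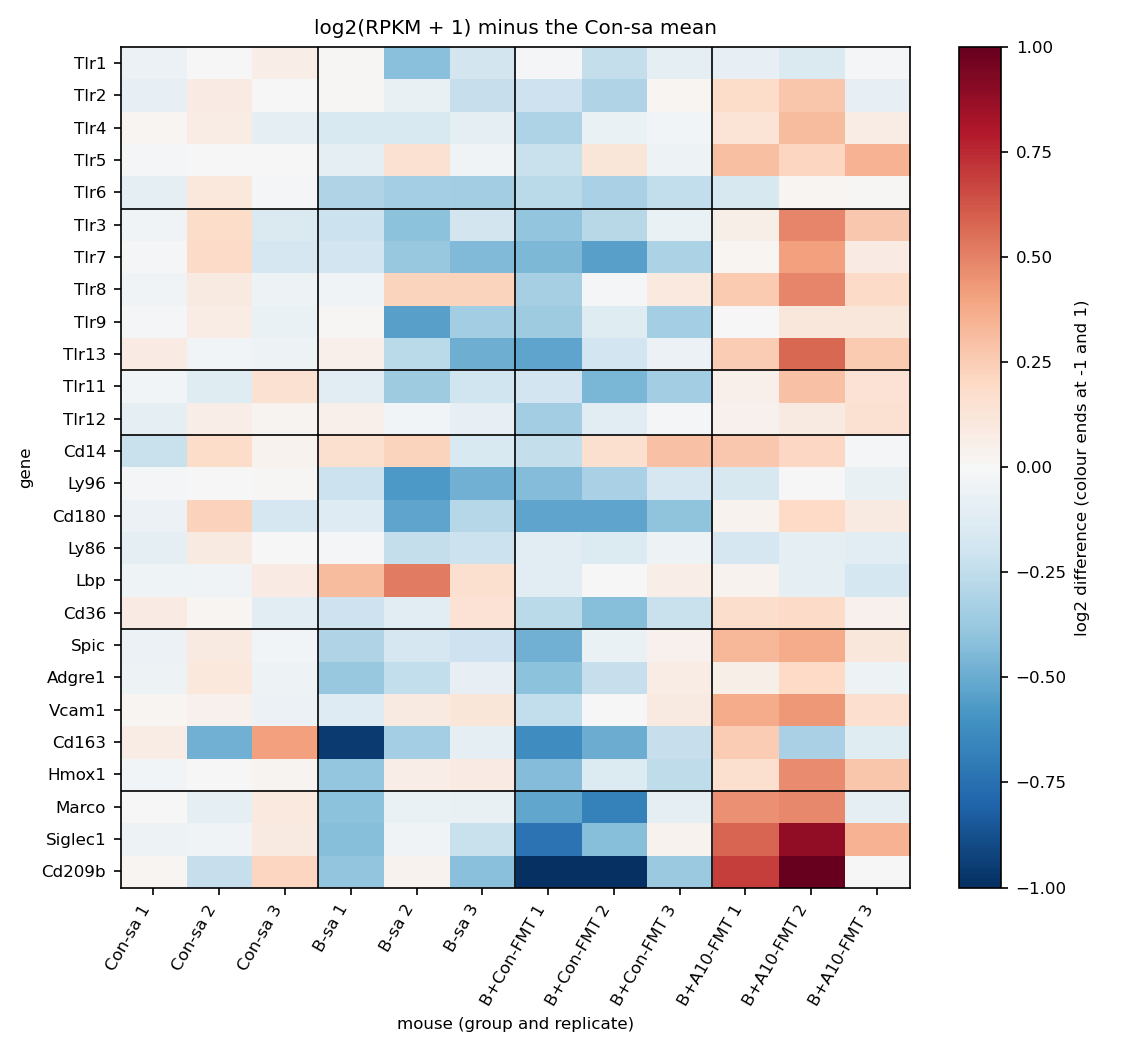
Colour gives log2(RPKM + 1) of each gene (rows) in each mouse (columns) minus the mean of the 3 Con-sa mice, with colours ending at -1 and 1. From top to bottom the blocks are surface members, endosomal members, Tlr11 and Tlr12, co-receptors, red pulp macrophage markers and marginal zone macrophage markers; the B+A10-FMT columns, mouse 2 above all, are mostly red in the endosomal and macrophage blocks.

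The 5 red pulp macrophage markers summed to 493 to 508 RPKM in the saline controls, 400 to 519 after busulfan alone, 380 to 466 with water donors and 585 to 679 with AOS donors. Between the 2 transfers, 3 of these 5 were called higher, Spic, Vcam1 and Hmox1, with a median log2 difference of 0.39 over the list. The 3 marginal zone macrophage markers were all called higher there, Marco at 93.2 against 56.7 RPKM, Siglec1 at 16.7 against 8.05 and Cd209b at 22.6 against 6.23, and their sums were 92.4 to 108, 74.4 to 96.4, 58.7 to 92.3 and 98.2 to 156 in the same order of groups. Of the 5 monocyte markers, 3 were called higher, and of the 4 endothelial markers all 4, whose sums were 65.5 to 73.2 with water donors and 85.5 to 89.7 with AOS donors. The conventional dendritic cell markers, of which 2 of 6 were called higher, summed to 41.8 to 42.7 and 49.3 to 55.4. Against busulfan alone, the AOS-donor group had 1 of 5 red pulp, 1 of 3 marginal zone, 1 of 5 monocyte and 3 of 4 endothelial markers called higher. Against the saline controls, 2 of 4 endothelial markers were lower after busulfan alone and 4 of 4 with water donors. The endothelial sums were 85.1 to 85.5 RPKM in Con-sa and 68.3 to 73.9 in B-sa. With water donors 1 of 5 monocyte markers was also below the controls, and no red pulp or marginal zone marker was called in these 2 comparisons. None of the markers in these lists was at 0 in any group. Their part in the receptor differences was not tested.

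All 5 B cell markers were lower after busulfan alone than in the saline controls, with a median log2 difference of -0.38 and sums of 1370 to 1650 against 1820 to 2010 RPKM. With water donors against the saline controls, 2 of 5 B cell markers were lower and 2 of 5 T cell markers higher. Siglech, a marker of plasmacytoid dendritic cells, which carry Tlr7 and Tlr9, was at 16.1 RPKM in the saline controls, 9.09 after busulfan alone, 5.89 with water donors and 12 with AOS donors, and it was higher with AOS than with water donors (log2 difference 0.90, adjusted p = 0.000545). Siglech was the 1 of the 4 markers of that list called between the 2 transfers, with a list median of -0.18. Ccr9 was at 2.74 RPKM with AOS donors against 3.48 with water donors and Pacsin1 at 3.65 against 3.95, neither passing the test. The sum over the 4 markers was 46.7 to 109 RPKM in the saline controls, 25.2 to 54.3 after busulfan alone, 99.1 to 159 with water donors and 23.7 to 113 with AOS donors, and it includes Klk1, which is also a transcript of the pancreas. In B-sa versus Con-sa, Siglech was again the 1 of 4 called, and it was lower in B-sa. The 8 neutrophil markers summed to 1710 to 1770 RPKM in Con-sa and 3040 to 4940 in B-sa, and 2 of the 8, Camp and Ltf, were called higher there. The 4 natural killer cell markers were all lower after busulfan alone than in the saline controls (median log2 difference -1.09) and all lower with water donors than in Con-sa (-1.07), and 2 of them, Eomes and Klrb1c, were higher with AOS than with water donors. Their sums were 25.4 to 26.8 RPKM in the saline controls, 9.16 to 9.79 after busulfan alone, 7.9 to 8.54 with water donors and 9.36 to 15.5 with AOS donors. No neutrophil, B cell or T cell marker was called between the 2 transfers. The part of these cells in the receptor differences was not tested.

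The libraries with more acinar transcripts bear on the receptor calls as follows. When Con-sa mouse 2 and B+A10-FMT mouse 3 were left out together, an alternative chosen after seeing the data, 2 members were called for AOS donors against water donors, 1 for AOS donors against busulfan alone and 0 for the other 4 comparisons. The log2 differences between the 2 transfers were then 0.67 for Tlr13 (adjusted p = 0.0525), 0.36 for Tlr4 (0.0699) and 0.21 for Tlr6 (0.14), and the Tlr6 difference of B-sa from Con-sa was -0.28 (0.0588). All 3 B+Con-FMT libraries had high acinar sums and were kept in that fit. Within the B+Con-FMT group the acinar transcripts and the treatment therefore cannot be told apart.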

How the data were processed

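Total RNA from whole spleen was sequenced after poly(A) selection, and the authors deposited 1 table of RPKM values per mouse, over 60654 RefSeq transcripts, without counts. The submitters' processing notes name HISAT, Bowtie2 and mm10, whereas the study's methods name another aligner, so which aligner made the values is uncertain. Strand use is not given in the sources used here. RPKM was summed over the transcripts of each of 18221 genes by Entrez identifier. Genes at 1 RPKM or more in at least 3 mice (12671) entered limma 3.58.1 (R 4.3.3; moderated by a robust, intensity-dependent prior, group as the factor, 12 mice in 1 fit) on log2(RPKM + 1), with Benjamini-Hochberg adjustment over all genes. The study used the DEGseq package, a method for read counts, which was not run here because only RPKM values were available. The limma steps were tested on simulated data. Genes named were the 10 members, list genes called, and the 3 genes of highest correlation with each member. The 22 alternatives covered the pseudocount (0.1), filters, scaling, transcripts, model and each mouse left out. Same-numbered mice did not deviate together (r from -0.373 to 0.303 over the 6 comparisons), so the numbers pair no samples. Members, lists and tests were chosen with earlier results of these data known. The p-values measure the spread between 3 mice per group.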

Additional observations from a re-analysis of the deposited data

How the results depend on the processing

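The counts of receptors called were 1 (B-sa versus Con-sa), 0 (water donors versus busulfan alone), 4 (AOS donors versus busulfan alone), 5 (AOS versus water donors), 2 (water donors versus Con-sa) and 0 (AOS donors versus Con-sa). The counts of 0 and the count of 1 in B-sa versus Con-sa held in the 10 alternatives that do not leave out a single mouse, with 1 exception. The latter was 0 with the libraries of Con-sa mouse 2 and B+A10-FMT mouse 3 left out together, an alternative that kept the acinar-rich B+Con-FMT libraries. AOS donors versus busulfan alone gave 2 without a filter, 2 with a replicate block, 0 in a fit of the 2 groups only and 3 with median-of-ratios scaling. It gave 0 on curated transcripts and 1 without those 2 libraries. AOS versus water donors gave 3 without a filter, 3 with median-of-ratios scaling, 9 with totals equalised outside the globin genes, 2 on curated transcripts and 2 without the same 2 libraries. Over all genes that comparison had 1310 calls, and 902, 1254, 2338, 545 and 632 in the same order of alternatives. AOS donors versus busulfan alone had 668 calls over all genes. They were 458 without a filter, 409 with the block, 184 in the 2 groups only and 631 with median-of-ratios scaling. On curated transcripts they were 196, and without the same 2 libraries 216. Water donors versus Con-sa gave 1 without a filter, 1 with a replicate block, 1 on curated transcripts and 0 without the same 2 libraries. Its calls over all genes were 1124, and 875, 771, 381 and 313 in that order of alternatives. The replicate numbers pair no mice, and the block left 1, 0, 2, 4, 1 and 0 members called in the order above. With each mouse left out in turn the counts ranged from 1 to 4, 0 to 0, 0 to 5, 1 to 5, 0 to 3 and 0 to 0. Of the 25 receptor differences that were called or did not overlap, 1 changed direction in these alternatives, Tlr3 in AOS donors versus busulfan alone, at -0.0927 on curated transcripts, and outside the 25 further differences turned there, among them 5 of the 6 of Tlr1. Median-of-ratios scaling moved the median log2 difference of all genes in AOS versus water donors from 0.0464 to 0. The cause of the lost calls was not tested.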
